A study of Homo sapiens with 2 samples.

Results

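The intermediate filament genes of a U2OS reporter line were described from poly(A) RNA of 2 replicate libraries of untreated cells. Members were chosen by symbol: every keratin named KRT with a number, the type III and type IV genes VIM, DES, GFAP, PRPH, NEFL, NEFM, NEFH, INA and SYNM, the nestin gene NES, and the lamin genes LMNA, LMNB1 and LMNB2, with pseudogenes and keratin-associated proteins left out. The rule used no measured value. It found 68 members among 28661 named genes present in both libraries, of which 55 were keratins (26 of type II, 28 of type I, and KRT222) and 13 were not.

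U2OS is a human bone osteosarcoma line. The cells carried a recombinant reporter of cell cycle phase (G1S-CCPM) and stably expressed the Cas9 nuclease under a CAG promoter, and the sources used here do not say whether the line was a single clone. Cells were kept in geneticin (500 µg/mL) in McCoy's 5A, supplemented with fetal bovine serum at 10%, under 5% CO2 and 37 °C. There was 1 group and no comparison of conditions, and since the labels do not say that the replicates were separate cultures, the spread between them may be technical. Of 9 bone lineage markers, 5 were at FPKM 1 or more in both libraries: SPARC (312 in replicate 1 and 297 in replicate 2), COL1A1, RUNX2, ALPL and SPP1. SP7 and COL1A2 were under 1, and BGLAP and IBSP were listed at 0. The share of 5 in 9 lies near the 59.1% of protein-coding genes at this level, so the count alone says little about lineage. FPKM divides the fragments of a transcript by its length in kilobases and by the size of the library, so levels of different genes can be compared per length.

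Intermediate filaments are rope-like polymers of coiled-coil proteins that give cells and nuclei mechanical strength. Keratins assemble as obligate pairs of a type II (basic) and a type I (acidic) chain and are the filaments of epithelia, hair and nails, whereas vimentin, a type III protein, forms filaments on its own and is typical of mesenchymal cells. Neurofilaments are type IV proteins of neurons, and lamins line the inside of the nuclear envelope. Lamin A and lamin C are made from the single gene LMNA by alternative splicing, and B-type lamins come from LMNB1 and LMNB2.

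Both B-type lamins end in a CaaX box, a cysteine and a few residues after it. The box marks a protein for attachment of a farnesyl group by farnesyltransferase, whose subunit FNTA is described with the lamins. The last 30 coding bases are shown from GENCODE 29 transcript sequences on GRCh38 (LMNB1 on the plus strand of chromosome 5, LMNB2 on the minus strand of chromosome 19), with the 4 codons before the stop codon in capitals.
LMNB1 end: gcatccaatagaagcTGTGCAATTATGtaa
LMNB2 end: accacctcaagaggcTGCTACGTGATGtga
The first of these 4 codons encodes cysteine in both genes, as TGT in LMNB1 and TGC in LMNB2.

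A gene was called detected at FPKM 1 or more in both libraries with status OK, the status by which the deposited tables mark a usable estimate. Of 66 members with that status, 16 were detected, a smaller share than the 41.2% of all named genes and the 59.1% of protein-coding genes that met the same rule. KRT8 and KRT18 had a failed status in both libraries and were not counted. Their deposited values were far above 1, and with entries of any status 18 of 68 members were detected. The other 50 members were under 1 in both libraries, and 20 of these were listed at 0 in both. By class, all 3 lamins were detected, as were 1 of 4 type III genes, 2 of 6 type IV and nestin genes, and 10 of 53 keratins with status OK.

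**Figure D1:**
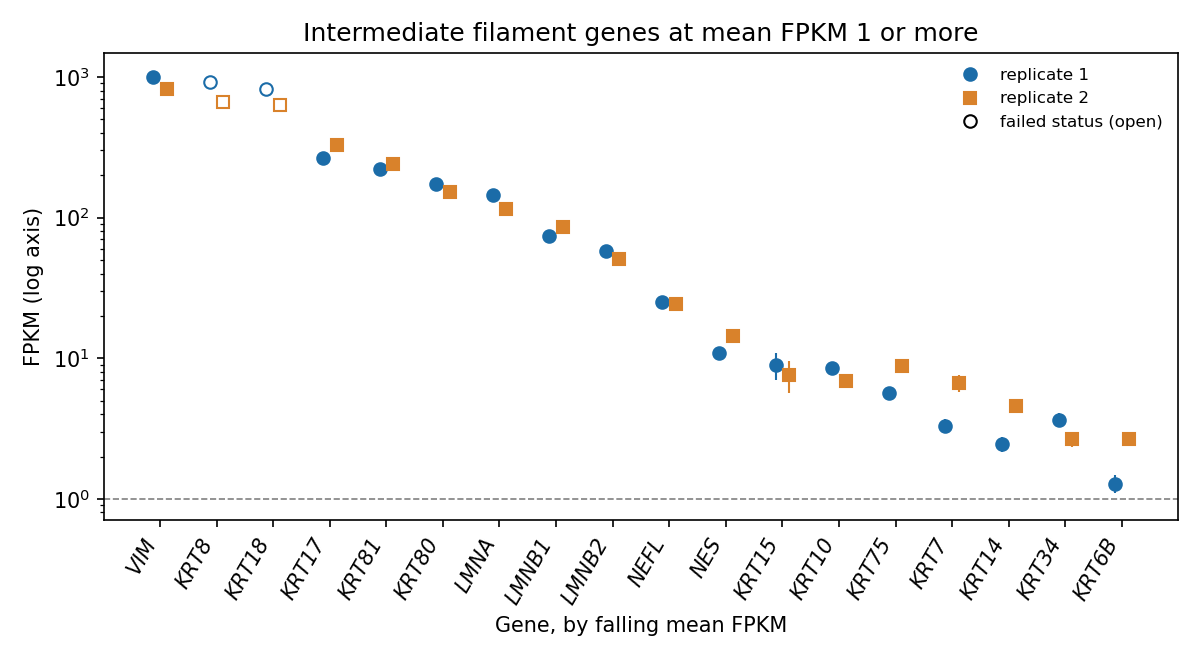
FPKM (log axis) of the 18 members at mean FPKM 1 or more, in order of falling mean, with replicate 1 as circles and replicate 2 as squares; vertical lines are the deposited confidence bounds, open symbols have a failed status and have no bounds drawn, and the dashed line is FPKM 1. VIM, KRT8 and KRT18 lie together at the top, and KRT6B, at 1.29 and 2.66, lies nearest the line.

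VIM, which encodes vimentin (its reference transcript lies at chr10:17228259-17237593 on GRCh38), had the highest level of all members. It was at 1003 FPKM in replicate 1 and 815 in replicate 2, or 909 ± 132 (SD, n = 2), which placed it at rank 68 among the named genes. Its level was higher in replicate 1, and the confidence bounds of the libraries, 961 to 1044 and 781 to 849, did not meet. These bounds cover the estimate within a library and not the spread between libraries. The other type III genes were far lower. DES, the filament of muscle, was at 0.237 and 0.219 FPKM. GFAP, the filament of astrocytes, was at 0.194 and 0.165, and PRPH, a filament of peripheral neurons, was listed at 0 in both.

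KRT8 and KRT18 encode the keratin pair of simple epithelia. KRT8 was deposited at 926 FPKM in replicate 1 and 663 in replicate 2 (795 ± 186, SD, n = 2), and KRT18 at 824 and 632 (728 ± 136, SD, n = 2). The upper confidence bounds deposited with them, 38.6 and 27.8 for KRT8 and 34.5 and 26.6 for KRT18, lay below the values themselves, and their lower bounds were 0. All failed entries shared this in replicate 1 (16 of 16), as did 33 of 34 in replicate 2, and no entry with status OK did in either library. Whether the failed values are as accurate as the others was not tested. In both libraries a single reference transcript of KRT8, chr12:52897187-52905084, held the whole value. Longer KRT8 reference transcripts that reach into KRT18 on the opposite strand were listed at 0. The level of KRT8 over that of KRT18 was 1.12 in replicate 1 and 1.05 in replicate 2.

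A further 3 keratins were above 100 FPKM, and they came from different compartments. KRT17, a type I keratin of hair follicles and of wounded or proliferating epidermis (chr17:41619440-41624630), was at 265 in replicate 1 and 326 in replicate 2 (295 ± 42.7, SD, n = 2). KRT81, a type II keratin of the hair shaft, was at 223 and 241 (232 ± 12.4, SD, n = 2). KRT80, an epithelial type II keratin, was at 173 and 152 (163 ± 14.5, SD, n = 2). The ranges of these 3 genes over the libraries did not overlap, in the order KRT17, KRT81, KRT80. Together with KRT8 and KRT18 they made up 98.5% of the summed keratin FPKM of any status in replicate 1 and 97.9% in replicate 2. KRT8 alone made up 37.8% and 32.3%, and KRT17 10.8% and 15.8%.

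The other 7 detected keratins were low. KRT15, of basal keratinocytes and the follicle bulge, was at 8.91 in replicate 1 and 7.59 in replicate 2 (8.25 ± 0.935, SD, n = 2). KRT10, the type I keratin of suprabasal epidermis, was at 8.51 and 6.83 (7.67 ± 1.19). KRT75, of the hair companion layer, was at 5.65 and 8.80 (7.22 ± 2.23). The ranges of KRT15, KRT10 and KRT75 overlapped, and KRT75 was below KRT10 in replicate 1 but above it in replicate 2. KRT7, a type II keratin of simple and ductal epithelia, was at 3.32 and 6.65 (4.98 ± 2.36). KRT14, the basal type I keratin, was at 2.47 and 4.56 (3.52 ± 1.48). KRT34, a type I hair cortex keratin, was at 3.65 and 2.66 (3.16 ± 0.706). KRT34 was thus above KRT14 in replicate 1 and below it in replicate 2. An assembled transcript held 1.42 of the replicate 1 value of KRT34. On reference transcripts alone KRT34 was at 2.24 and 2.66, below KRT14 in both libraries. KRT6B, a type II keratin of nail and hair follicle that is also induced in wounded skin, was at 1.29 and 2.66 (1.97 ± 0.969), and its mean was the lowest of those detected.

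The remaining 43 keratins with status OK were under 1 in both libraries. Of these, 18 were listed at 0 in both and 15 were above 0 in at least 1 library but nowhere over 0.0511. The other 10 reached 0.1 in at least 1 library. KRT222 (0.786 in replicate 1 and 0.719 in replicate 2) and KRT6A (0.595 and 0.775) lay just under the threshold. KRT33B was at 0.675 and 0.174, and KRT5, the basal partner of KRT14, at 0.312 and 0.356. The others were KRT16 (0.268 and 0.334), KRT86 (0.277 and 0.209), KRT83 (0.102 and 0.184), KRT4 (0.128 and 0.0699), KRT23 (0.0873 and 0.113) and KRT19 (0.0723 and 0.118). At these levels the order of genes cannot be read from 2 libraries. All 4 type I keratins of the hair root sheath (KRT25, KRT26, KRT27 and KRT28) were listed at 0, as were KRT1 and KRT2, the suprabasal partners of KRT10.

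In 12 textbook pairs of type II with type I keratins, both partners were detected in 2, 1 partner in 4, and neither in 6. These counts take entries of any status, since KRT8 and KRT18 had a failed status. Beside KRT8 with KRT18, the other pair with both partners was KRT6B with KRT17, where the type II level was 0.00485 of the type I level in replicate 1 and 0.00816 in replicate 2. The unmatched partners lay on either side. KRT7 exceeded KRT19 by 45.9 times in replicate 1 and 56.4 times in replicate 2. The KRT7 value of replicate 2 rested mostly on an assembled transcript. On own reference transcripts KRT7 was there at 0.732, under the threshold, or 6.21 times KRT19. KRT5 stood at 0.126 and 0.0780 of KRT14, and KRT1 and KRT2 were listed at 0 beside KRT10. With entries of any status, type II keratins made up 54.5% of the type I and type II total in replicate 1 and 52.3% in replicate 2 (53.4 ± 1.52%, SD, n = 2). With status OK alone, that is without KRT8 and KRT18, the share was 58.4% and 54.3% (56.3 ± 2.96%). The mean share was 42.7% when only each gene's own reference transcripts were summed, a sum in which KRT81 of replicate 2 counted as 0.

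High and low keratins lay side by side along the chromosomes. Type II genes and KRT18 form a cluster on chromosome 12 with 27 keratins, of which 7 were detected with entries of any status, and type I genes lie on chromosome 17 with 28 keratins including KRT222, of which 5 were. The pair KRT8 and KRT18 lies at the end of the chromosome 12 cluster, next to a run of 15 keratins from KRT6C to KRT78 with none detected. The highest level in that run was 0.775 FPKM, of KRT6A, and 7 of its genes were listed at 0 in both libraries. On chromosome 17 the longest such runs were 7 keratins each, from KRT12 to KRT33B with a highest level of 0.675 and from KRT31 to KRT13 with a highest level of 0.0457, and KRT17 is the last gene of the cluster.

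**Figure D2:**
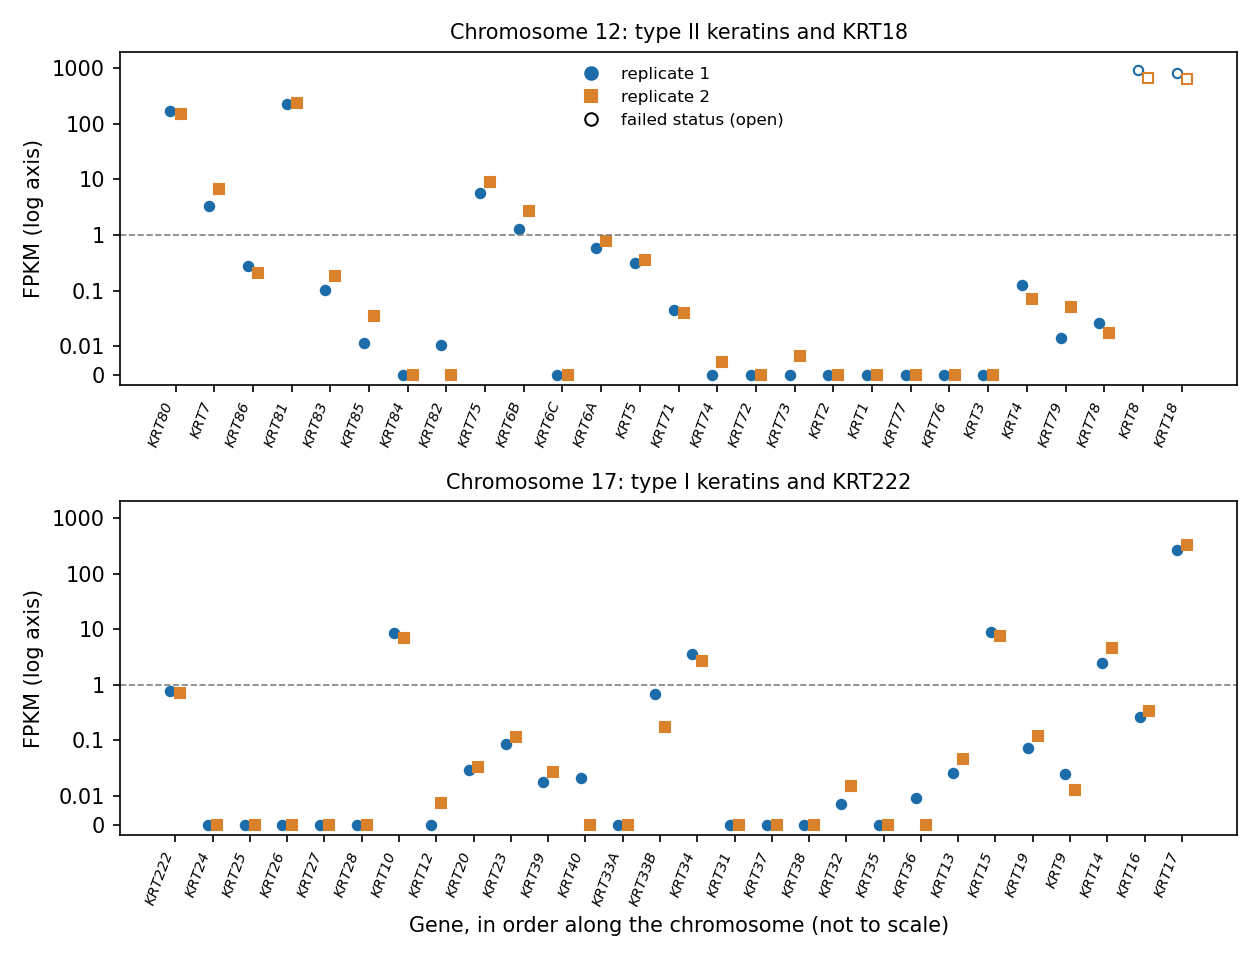
FPKM (log axis, with 0 drawn at the foot) of each keratin in its order along chromosome 12 (upper panel) and chromosome 17 (lower panel), not to scale; circles are replicate 1, squares replicate 2, open symbols have a failed status, and the dashed line is FPKM 1. KRT8 and KRT18 stand at the end of the chromosome 12 panel after a run of 15 genes under 1, and KRT17 at the end of the chromosome 17 panel beside KRT16, at 0.268 and 0.334.

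Of 13 epithelial markers that are not keratins, 4 were detected (EPCAM, OCLN, CLDN4 and CDH1), beside 59.1% of protein-coding genes. The summed level over the list was 38.6 FPKM in replicate 1 and 36.1 in replicate 2. GRHL2, ESRP2, CLDN7 and CLDN3 were listed at 0. Of 10 genes of the cornified layer and hair, 2 were detected beside the same 59.1%, FLG (12.3 and 10.2) and TGM1 (10.8 and 6.54). That list summed to 24.1 and 17.4. In bulk RNA a few cells with a high level and many cells with a low level cannot be told apart, and the part of such cells in the keratin levels was not tested.

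KRT81 was measured through different transcripts in the 2 libraries. In replicate 1 its whole value stood on the reference transcript of 1910 bases. In replicate 2 that transcript was listed at 0, and the whole value stood on a transcript of 1264 bases that the assembly added (chr12:52285907-52288493, minus strand). It covered exons 4 to 9 of 9, or 1221 exonic bases, with 37 bases before exon 4 and 6 beyond the last exon, and held none of the 708 bases of exons 1 to 3. The assembled transcript thus begins 37 bases before exon 4, in bases not shown here. The spliced boundary of exons 3 and 4 is shown from the reference transcript in GENCODE 29, minus strand of chromosome 12. The last 30 bases of exon 3 are in lower case and the first 60 bases of exon 4 in capitals.
KRT81 exon boundary: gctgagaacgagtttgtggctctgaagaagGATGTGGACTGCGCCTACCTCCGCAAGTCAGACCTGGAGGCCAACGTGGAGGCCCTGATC
The gene's level per length was nearly the same in both libraries, at 223 and 241 FPKM, but the structures behind it were not. FPKM divides by transcript length, here 1910 bases in replicate 1 and 1264 in replicate 2. Near values in FPKM therefore do not mean near numbers of fragments.

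KRT81 also has close relatives. Its coding sequence was 90.1% identical to that of KRT86, a hair keratin within whose span KRT81 lies on the opposite strand, and 89.3% identical to that of KRT83. The longest run identical in KRT81 and KRT86 was 605 bases, from coding base 61 to base 665 of KRT81, and lay in exons 1 to 4. No source used here says how reads from this run were divided, so the split of levels between KRT81 and KRT86 is uncertain. The ends of the coding sequences, which lie in exons that both deposited KRT81 structures hold, tell the copies apart. The last 60 coding bases are shown from GENCODE 29, with bases unlike KRT81 at the same distance from the stop codon in capitals.
KRT81 end: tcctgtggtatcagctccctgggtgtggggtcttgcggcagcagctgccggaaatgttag
KRT86 end: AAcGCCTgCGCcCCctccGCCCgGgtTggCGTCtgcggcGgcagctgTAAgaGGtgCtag
KRT83 end: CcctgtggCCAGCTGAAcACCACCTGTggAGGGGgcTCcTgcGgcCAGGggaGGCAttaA
Counted by distance from the stop codon and without alignment, KRT86 differed from KRT81 at 28 of these 60 bases and KRT83 at 37. The coding sequences differ in length, with 1518 bases in KRT81, 1461 in KRT86 and 1482 in KRT83. The positions compared are therefore not shown to be matching sites. In contrast, the coding sequences of KRT6A, KRT6B and KRT6C were 97.5% to 98.5% identical to each other, so the division of the low KRT6 levels among them is uncertain. KRT14 and KRT16 were 85.2% identical, and KRT17 was 78.0% identical to KRT14 and 72.4% to KRT16.

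KRT80 and KRT7 also drew on more than 1 transcript. The KRT80 reference transcripts with a level, of 3894 and 3859 bases, share 1235 coding bases and then differ, as shown for the minus strand of chromosome 12 from GENCODE 29 with the shared bases in lower case and the next 30 in capitals.
KRT80 longer transcript: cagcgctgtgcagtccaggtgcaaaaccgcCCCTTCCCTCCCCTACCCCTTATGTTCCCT
KRT80 shorter transcript: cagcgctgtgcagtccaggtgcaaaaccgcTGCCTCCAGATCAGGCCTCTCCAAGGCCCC
Shorter and longer here refer to the whole transcript: the shorter one has the longer coding sequence, 1359 bases against 1269. The shorter form made up 49.5% of the reference transcripts' FPKM in replicate 1 and 52.7% in replicate 2. Replicate 2 had assembled transcripts beside them, and with these in the total the shorter form made up 38.8% and the longer form 34.8%. For KRT7, replicate 1 placed 2.93 of 3.32 FPKM on a reference transcript of 1891 bases, while replicate 2 placed 5.92 of 6.65 on an assembled transcript of 667 bases. On reference transcripts alone KRT7 was at 3.32 in replicate 1 and 0.732 in replicate 2, so the order of the libraries turned round.

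LMNA (chr1:156114670-156140089 for the lamin A transcript) had the highest level of the 3 lamin genes. It was at 146 FPKM in replicate 1 and 115 in replicate 2 (130 ± 21.8, SD, n = 2). LMNB1, on chromosome 5, was at 73.5 and 86.1 (79.8 ± 8.92), and LMNB2, on chromosome 19, at 58.3 and 50.4 (54.4 ± 5.53). The ranges of the 3 genes did not overlap. LMNA was 1.98 times LMNB1 in replicate 1 and 1.33 times in replicate 2. Against the sum of both B-type genes the order depended on the library: LMNA was above it in replicate 1 (146 against 132) and below it in replicate 2 (115 against 137).

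Lamin C was the more abundant of the LMNA transcripts. Of 7 reference transcripts at the locus, 5 were listed at 0 in both libraries. The lamin C transcript was at 101.5 FPKM in replicate 1 and 80.1 in replicate 2, and the lamin A transcript at 44.1 and 34.7. Lamin C thus made up 69.7% and 69.8% of the locus, and was 2.30 and 2.31 times lamin A. The gene's level differed between the libraries by 1.27 times while this proportion was nearly the same. For LMNB1, whose gene level in replicate 1 was 0.854 times that in replicate 2, the transcript shares were unequal. Its longer reference transcript (3403 bases) held 48.1% in replicate 1 and 27.7% in replicate 2, and the shorter (2250 bases), which starts further downstream, held the rest.

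**Figure D3:**
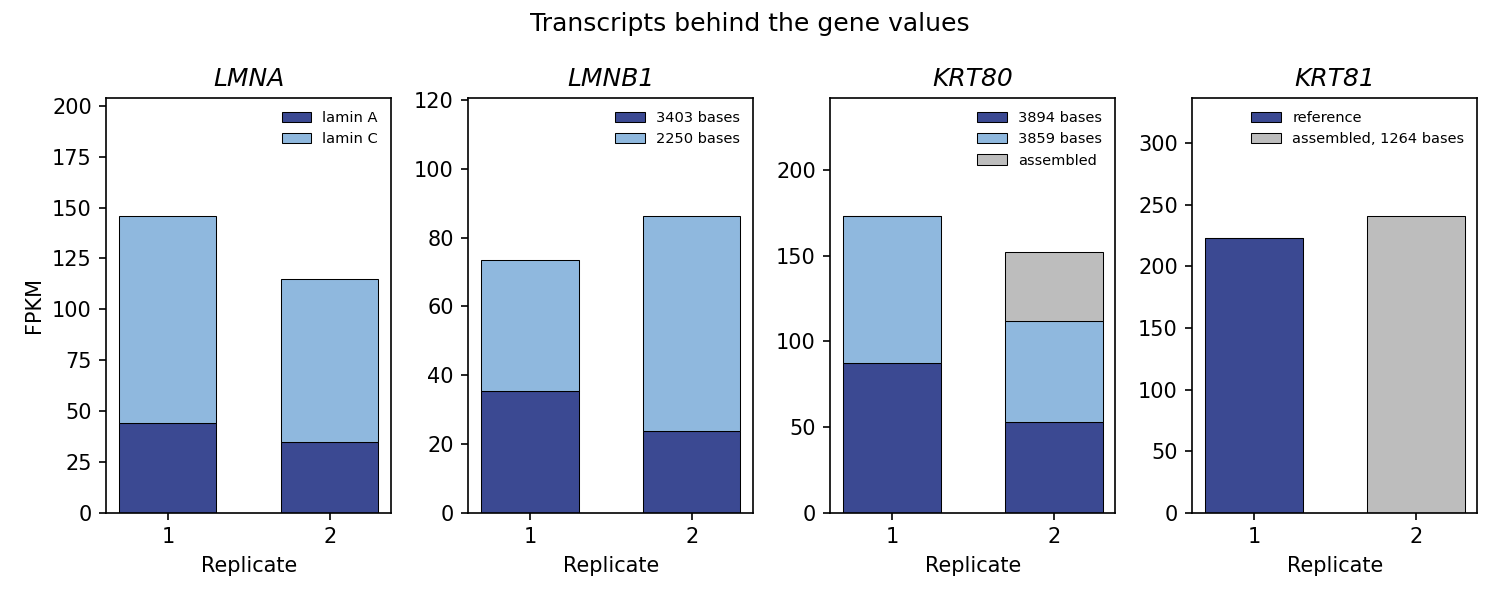
Stacked bars of FPKM by transcript for LMNA, LMNB1, KRT80 and KRT81 in replicate 1 and replicate 2, each panel on its own axis from 0; grey marks transcripts added by the assembly. The lamin C part of LMNA is 69.7% and 69.8%, while the longer LMNB1 transcript is 48.1% and 27.7%, and KRT81 stands on different transcripts in the 2 libraries.

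RNA of genes for proteins that bind or process lamins was detected for both lists. All 15 genes of nuclear lamina partners were detected, beside 41.2% of all named genes and 59.1% of protein-coding genes, the highest being BANF1, a DNA-binding protein of the nuclear envelope (301 FPKM in replicate 1 and 215 in replicate 2), EMD, which encodes emerin (83.4 and 64.2), and TMPO, which encodes LAP2 proteins (63.0 and 69.3). All 5 genes for enzymes that modify the lamin tail were also detected. The highest were ICMT, the carboxyl methyltransferase (28.0 and 26.8), ZMPSTE24, the protease that cuts prelamin A (22.8 and 23.0), and FNTA, a farnesyltransferase subunit (20.2 and 20.5).

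NEFL, the light neurofilament chain, was the only neurofilament gene detected among the 3. It was at 25.0 FPKM in replicate 1 and 24.4 in replicate 2 (24.7 ± 0.428, SD, n = 2), and its bounds overlapped between the libraries. The medium and heavy chains were near 0, NEFM at 0.0807 and 0.0310 and NEFH at 0.0586 and 0.101. INA, the alpha-internexin gene, was listed at 0 in both, and SYNM, which encodes synemin, was at 0.146 and 0.177. NES, which encodes nestin, a filament protein of neural progenitors and other dividing cells, was at 10.9 and 14.5 (12.7 ± 2.52). VIM was 92.0 times NES in replicate 1 and 56.4 times in replicate 2.

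Of 10 neuron markers, 5 were detected, beside 59.1% of protein-coding genes, the share to set beside each list here. The neuron list summed to 79.7 FPKM in replicate 1 and 57.6 in replicate 2, most of it from TUBB3 (61.3 and 41.9). The others detected were RBFOX3 (10.8 and 7.62), MAP2 (2.46 and 2.30), SYT1 (1.77 and 2.18) and SNAP25 (1.31 and 1.85). ELAVL3, ELAVL4, GAP43, SYP and STMN2 were under 1. For the astrocyte markers 2 of 5 were detected, ALDH1L1 (4.80 and 4.08) and SLC1A3 (3.57 and 3.37), and the list summed to 8.39 and 7.55. AQP4, SLC1A2 and S100B were under 1, and S100B was listed at 0 in replicate 1. Of 8 muscle markers, 1 was detected, TNNT1 (185 and 174 of a list sum of 186 and 175), and MYOG and MYF5 were listed at 0. The part of such genes' cells in the NEFL, GFAP and DES values was not tested.

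Among 6 cytolinkers, which tie filaments to other structures, 3 were detected, beside 59.1% of protein-coding genes. PLEC, which encodes plectin, a linker of keratin and vimentin filaments, was at 159 and 187 FPKM, MACF1 at 27.0 and 38.3, and DST at 21.4 and 39.6. The epithelial members PPL (0.621 and 0.668), EVPL (0.00821 and 0.00852) and EPPK1 (0.178 and 0.206) were under 1. Of 12 desmosome genes, which build the junctions to which keratins attach, 6 were detected, beside the same 59.1%. The highest were PKP4 (32.8 and 32.0), JUP (32.5 and 28.6) and PKP2 (27.5 and 27.1). DSP, the desmoplakin that links keratins to the junction, was at 0.349 and 0.638. PKP1, DSG3, DSC1 and DSC3 were under 0.1 in both libraries, and DSG1 was listed at 0.

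Levels were then compared between the libraries as log2 of (FPKM + 1), replicate 1 over replicate 2, a scale on which changes of low genes are understated. A gene was called differing at an absolute log2 ratio of 1 or more with bounds that did not overlap. None of the 16 members compared met this, against 1.18% of all genes compared (147 of 12423), of which 0.7% were higher in replicate 1 and 0.483% in replicate 2. At such a share, none in 16 says little about the members. With 1 library on each side there was no test. The members' ratios ran between -0.83 for KRT7 and 0.35 for KRT34, with 8 higher in each library. Both of these genes drew in 1 library on an assembled transcript, and on reference transcripts alone the order of the libraries turned round for each. Their median was -0.04, beside 0.04 for all genes. Bounds did not overlap for 14 of the 16 members (87.5%), beside 56.2% of the 11974 genes with bounds. Levels were not matched in this comparison, so it does not show that members vary more.

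**Figure D4:**
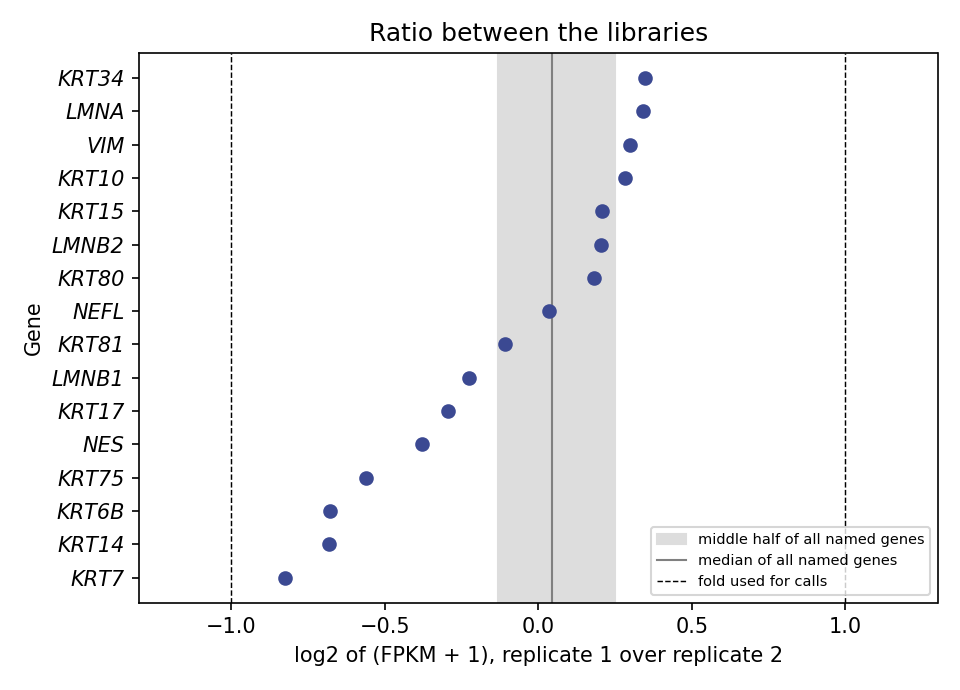
Log2 of (FPKM + 1) in replicate 1 over replicate 2 for the 16 members compared, with the middle part of all named genes (lower to upper quartile, -0.13 to 0.25) as a grey band, their median as a grey line, and the fold used for calls as dashed lines. All members lie inside the dashed lines, with KRT7, KRT14, KRT6B and KRT75 lowest.

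Of the 17 neighbouring pairs in the order of levels among the 18 members at mean FPKM 1 or more, ranges over the libraries overlapped in 7 and were apart in 10. The overlaps were VIM with KRT8, KRT8 with KRT18, and 5 in the low group from KRT15 down to KRT34. Among the 10 pairs apart, KRT34 and KRT6B were so only by 2.6559 against 2.6552 FPKM in replicate 2. Their bounds there overlapped, and on reference transcripts alone their ranges overlapped too, so their order is not settled. At the threshold, KRT34, KRT14 and KRT6B were the lowest members inside, and KRT222, KRT6A and KRT5 were among those outside. Reads from overlapping loci may add to some of these values: KRT10 overlaps KRT10-AS1 (6.15 and 4.33), and unnamed loci overlapped KRT15 (3.16 and 3.01) and KRT6B (2.49 in replicate 1). In replicate 2 unnamed loci, the highest at 47.6, also lay in the KRT8 locus, outside the transcript that held its value. KRT8 overlaps KRT18, and KRT81 overlaps KRT86. Whether such reads were added was not tested.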

How the data were processed

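The submitters' processing notes name build GRCh38 and Cufflinks 2.2.1, TopHat2 2.0.13, Bowtie2 2.2.3, Trimmomatic 0.32 and FastQC 0.11.2. Settings, annotation release and the use of strand in counting: not given in the sources used here, although the library kit was directional per the labels' protocols. Per the file headers, the authors deposited FPKM of genes and transcripts, each with confidence bounds and a status. Transcript tables as deposited have a column of read coverage, a signal per transcript. Each library was assembled on its own (56294 gene entries in replicate 1 and 66625 in replicate 2).

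Transcripts were named by RefSeq accession in an NCBI gene table (GRCh38.p14), then GENCODE 29, then by the name in the files. A gene's value is that of its locus, or the sum of its own reference transcripts where a locus holds several symbols. Of 28661 genes, 44 had a failed status. Locus starts were raised by 1 to count from 1. Sequences are from GENCODE 29, and those of LMNA are not reported here. Depth is known only in relative terms, from coverage per FPKM (5.78 and 5.57), so precision rests on the deposited bounds. No p-value was computed, since there is 1 group.

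Members, lists and thresholds were chosen with earlier results of these data known. Named with values were members at mean FPKM 1 or more, KRT8, KRT18, the 13 members that are not keratins, keratins at 0.1 or more in either library and, of each list, the 3 highest genes and those under 1. Marker lists are given by counts and examples. Alternatives covered thresholds, status, pseudocount, filter, scaling, transcripts and leaving out each library. The rule for genes differing between the libraries was tested on 2 simulated libraries of 12195 genes, with 50 genes at each fold. It called 50 at a fold of 4, 46 at 3, 41 at 0.333, 46 at 0.25 and 0 of 11995 unchanged genes. The simulated noise was not shown to match the real libraries, where log2 ratios of the 12423 genes compared had an SD of 0.562. These counts therefore check how the rule runs and give no rate of false or missed calls for the real libraries. Python 3.11.15, pandas 2.3.3, numpy 2.4.6, matplotlib 3.10.9 and Biopython 1.88 were used.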

Additional observations from a re-analysis of the deposited data

How the results depend on the processing

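The count of detected members, 16, was 18 at a threshold of 0.5, 12 at 5, 18 with entries of any status, 14 with own reference transcripts, and 16 after rescaling both libraries to a common sum. Asking instead for a lower confidence bound above 0 raised it to 32. The share of type II keratins, 56.3%, fell to 42.7% with own reference transcripts. Leaving out each library in turn gave 16 and 16 members, type II shares of 54.3% to 58.4% and lamin C shares of 69.7% to 69.8%. The number of members differing between the libraries was 0 with a pseudocount of 0.1 and after rescaling, while all genes differing numbered 247 at the pseudocount of 0.1 against 147. This number was also 0 with no filter, with a filter at 5 and with entries of any status, but these settings could not raise it. Genes under 1 in both libraries cannot reach the fold at a pseudocount of 1, and a filter at 5 only removes genes. KRT8 and KRT18, added with any status, have lower bounds of 0, so their bounds overlap. Sums of own reference transcripts were given no bounds here, although single transcripts have deposited ones, so no call was made with that setting. On own reference transcripts KRT81 was at 223 FPKM in replicate 1 and 0 in replicate 2, and KRT7 at 3.32 and 0.732. The count of 0 members therefore does not cover that setting. The median log2 ratio of members, -0.04, changed sign with a filter at 5 (0.03), entries of any status (0.11) and own reference transcripts (0.12). Rescaling shifted log2 ratios by -0.18, to -0.22 for members and -0.12 for all genes. With own reference transcripts the levels of 5 of 25 named members moved by more than their spread, KRT7 to 0.406 and KRT81 to 0.481 of its value. No paired analysis was possible because there is only 1 group. With 2 libraries of unknown absolute depth, values listed at 0 cannot be given a limit.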

Other observations

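Of 5 further genes of the intermediate filament superfamily or its close relatives, 4 were detected, beside 59.1% of protein-coding genes. SYNC, which encodes syncoilin, was the highest at 20.6 FPKM in replicate 1 and 22.1 in replicate 2 (21.3 ± 1.06, SD, n = 2), close to NEFL. IFFO2 was at 7.21 and 7.94, and IFFO1 at 1.26 and 1.31. The lens filament genes were at or near the floor, BFSP1 at 1.03 and 1.13 and BFSP2 at 0.0667 and 0.0396.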
